A study of Mus musculus with 18 samples.

Results

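The 10 genes described here were chosen by symbol as imprinted growth regulators. The rule uses no measured value, but the choice was made with earlier results of these data known. They are Igf2, Dlk1, Plagl1, Peg3, Mest and Peg10, which are expressed from the paternal copy, and Igf2r, Grb10, Cdkn1c and Phlda2, which are expressed from the maternal copy in most tissues. They were taken from 14804 genes in 3 tables of bulk RNA-seq. All 10 were in the tables of embryonic stem cells (ESCs, line E14) and trophoblast stem cells (TSCs). In extra-embryonic endoderm (XEN) cells 6 were in the table, and Igf2, Dlk1, Cdkn1c and Plagl1 have no value there. Cells were grown at 20% oxygen (normoxia) or at 2% oxygen (hypoxia) for 2 or 7 days, with 2 biological replicates each and 18 libraries in all. The labels give no separate normoxic group for day 2 or day 7, so hypoxia and time in culture cannot be told apart. No genetic change is named for any group. According to the methods of the study, ESCs grew without feeder cells, TSCs grew on feeders and XEN cells received medium conditioned on fibroblasts. The ESC libraries come from 1 line, so they share a genetic background, and the labels name no line for the TSCs and XEN cells. Reads were not assigned to parental copies, and the values below are the sum of both.

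Genomic imprinting leaves 1 parental copy of a gene active and the other silent, and many of the genes regulated in this way act on the growth of the embryo and placenta. Genes expressed from the paternal copy often promote growth and many genes expressed from the maternal copy restrain it. Igf2 and its clearance receptor Igf2r, which takes IGF2 to the lysosome, are the best-known opposing pair. In the placenta, Igf2, Cdkn1c, Phlda2, Peg10 and Mest are known for their roles in trophoblast growth and differentiation. In GENCODE on GRCm38, Igf2 (chr7:142650766-142666816), Cdkn1c (chr7:143458339-143461050) and Phlda2 (chr7:143501545-143503150) lie in 1 stretch near the end of chromosome 7, and Peg3 (chr7:6703892-6730431) lies near its start. Peg10 (chr6:4747306-4760517) and Mest (chr6:30723547-30748465) are on chromosome 6. Igf2r (chr17:12682406-12769664), Grb10 (chr11:11930508-12038683), Dlk1 (chr12:109452823-109463336) and Plagl1 (chr10:13060504-13131694) each lie on a chromosome of their own.

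The values are TPM, a measure of transcript abundance per length and depth, which the authors scaled for each cell type in its own table. TPM times the distance from gene start to gene end fell on whole reads, so introns were part of the length used. Between 35592641 and 75204029 reads were recovered per library, and member levels rested on at least 78 reads per library in ESCs and 122 in TSCs. Each cell type expressed its own markers. The 6 ESC markers summed to between 11833 and 15297 TPM in ESC libraries, the 5 TSC markers to between 633 and 1157 TPM in TSC libraries, and the 6 XEN markers to between 1979 and 2486 TPM in XEN libraries. Genes of the ESC marker list also had values in TSC libraries, where Pou5f1 and Tdgf1 were not among the genes of the table. The other 4 summed to 716 and 766 TPM in normoxia, 1157 and 1188 TPM on day 2, and 209 and 169 TPM on day 7. Whether these 4 genes mark ESCs in TSC libraries was not tested, and neither was their part in the values of the members. Markers of fibroblasts, the feeder cells, were uneven in TSCs. Their sum over 10 genes was 1878 and 266 TPM in normoxia, 202 and 961 TPM on day 2, and 439 and 261 TPM on day 7. In bulk samples, fewer cells of a type and less RNA per cell cannot be told apart.

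Promoters of 4 members that were called in a comparison below are shown, because the cells were deprived of oxygen and the genes are imprinted. Igf2 and Peg3 were also called and are not shown. Each run is the 250 bases before a RefSeq transcription start on GRCm38.p6, read along the gene's strand. Capitals mark the core of the hypoxia response element that HIF factors read (ACGTG or GCGTG on either strand) and the hexamer that ZFP57 reads on methylated imprinted regions (TGCCGC on either strand). CACGTG, which holds the HIF core on both strands and counts as 2 matches, is also the E-box of other factors. Each start shown has a match, whereas the second Grb10 start and the first Mest start, which are not shown, have none.
Igf2r, chr17:12769707-12769956, minus strand: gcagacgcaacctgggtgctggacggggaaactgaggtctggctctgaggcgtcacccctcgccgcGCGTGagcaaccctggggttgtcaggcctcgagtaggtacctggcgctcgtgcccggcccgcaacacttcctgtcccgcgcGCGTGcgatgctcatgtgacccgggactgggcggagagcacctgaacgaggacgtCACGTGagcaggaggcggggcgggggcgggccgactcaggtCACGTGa
Grb10, chr11:12037421-12037670, minus strand, the first of 2 starts: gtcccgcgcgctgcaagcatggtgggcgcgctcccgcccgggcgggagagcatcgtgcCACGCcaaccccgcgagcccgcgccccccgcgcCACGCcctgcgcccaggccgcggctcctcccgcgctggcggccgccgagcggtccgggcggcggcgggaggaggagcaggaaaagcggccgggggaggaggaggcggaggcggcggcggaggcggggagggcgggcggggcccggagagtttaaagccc
Dlk1, chr12:109452573-109452822, plus strand: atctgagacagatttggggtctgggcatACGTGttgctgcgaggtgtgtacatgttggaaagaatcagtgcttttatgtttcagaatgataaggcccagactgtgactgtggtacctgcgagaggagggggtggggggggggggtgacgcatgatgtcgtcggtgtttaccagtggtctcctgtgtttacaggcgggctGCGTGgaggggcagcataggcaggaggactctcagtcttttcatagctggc
Mest, chr6:30737800-30738049, plus strand, the second of 3 starts: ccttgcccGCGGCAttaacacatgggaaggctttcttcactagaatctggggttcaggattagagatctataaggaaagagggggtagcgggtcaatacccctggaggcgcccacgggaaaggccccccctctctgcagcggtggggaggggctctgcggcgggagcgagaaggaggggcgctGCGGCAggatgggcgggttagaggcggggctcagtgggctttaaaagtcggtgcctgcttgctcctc

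Of the 10 members, 8 had a promoter in the table used, with 14 starts in all. A HIF core was found before 7 of the 14 starts, and 38.6% of all 32851 promoters of this length held one. In the Igf2r promoter there were 6 matches, and CACGTG began both 48 and 7 bases before the start. The Plagl1 promoter had 4 matches, among them CACGTG from 182 bases before the start, and those of Dlk1, Phlda2 and the first Grb10 start had 2 each. The ZFP57 hexamer was found at 3 of the 14 starts, against 8.68% of all promoters. These were the overlapping second and last starts of Mest, with 2 matches each, and that of Plagl1. The promoters also differed in CpG content. Grb10 held 40 CpG at its first start and Igf2r 27, whereas Dlk1 and Peg3 held 8 each, near the median of 6 over all promoters. The 4 Igf2 starts held from 1 to 22 CpG and 1 HIF core in all. A match is a run of letters and not a measured binding site.

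Levels were compared between genes after division by the summed exon length, since spans of Grb10, Igf2r and Plagl1 were 11.9, 9.37 and 9.10 times their exons and that of Cdkn1c only 1.33 times. On this scale Peg10, a retrotransposon-derived gene needed for the placenta, was the most abundant member in each cell type, with a median of 458 TPM in ESCs, 421 TPM in XEN cells and 2027 TPM in TSCs. In ESCs it was apart from the next gene, Phlda2, at 141 TPM. The levels of Phlda2, Grb10 (118 TPM), Cdkn1c (69.6 TPM), Igf2r (45.6 TPM), Mest (31.0 TPM) and Peg3 (29.6 TPM) ran into each other from neighbour to neighbour. Dlk1 (3.71 TPM), Igf2 (2.39 TPM) and Plagl1 (1.70 TPM) formed a lower group, with a gap between Peg3 and Dlk1 in every library. In TSCs, Igf2 stood in second place at 1454 TPM, followed by Cdkn1c (750 TPM), Grb10 (347 TPM), Phlda2 (138 TPM), Igf2r (99.6 TPM), Peg3 (59.4 TPM), Mest (55.8 TPM), Dlk1 (8.64 TPM) and Plagl1 (2.46 TPM), and the ranges of all neighbours overlapped. In XEN cells Peg3 (279 TPM) overlapped with Peg10, Igf2r lay apart below them at 94.1 TPM, and Phlda2 (2.7 TPM), Mest (0.532 TPM) and Grb10 (0.133 TPM) were near the floor of the table. The XEN values of Phlda2, Mest and Grb10 rested on 8 to 97, 5 to 75 and 6 to 30 reads per library.

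**Figure D1:**
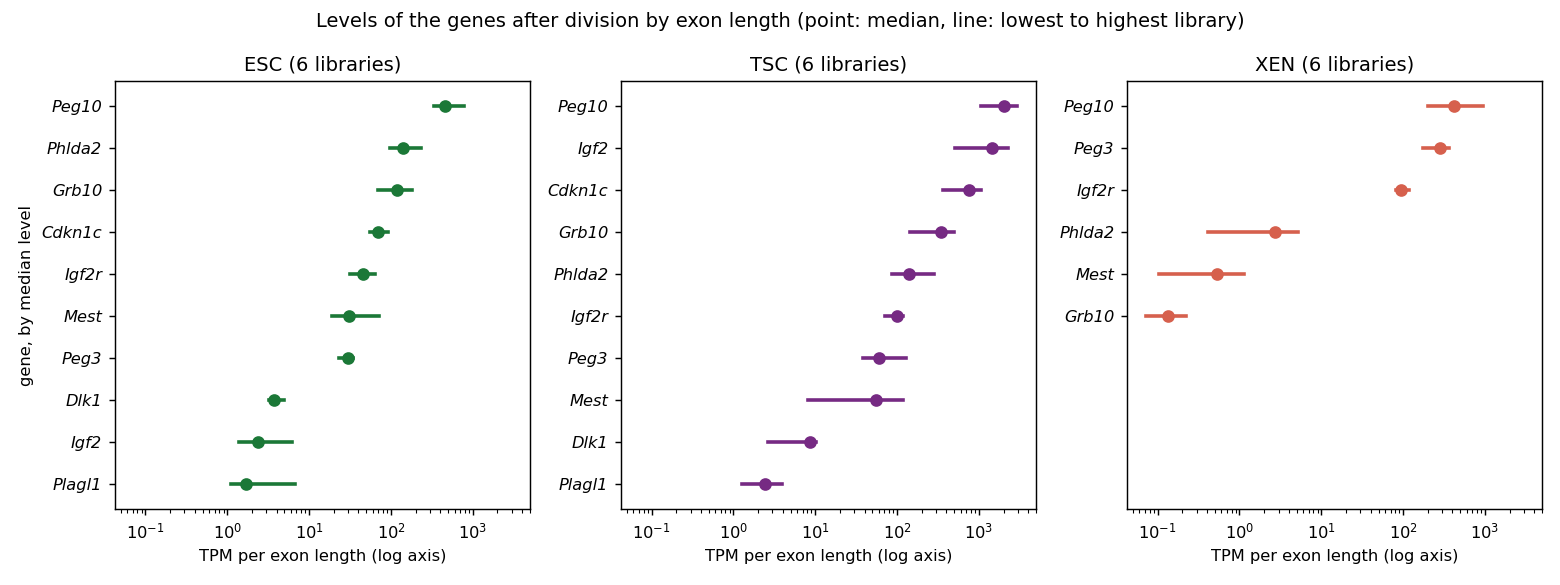
Median TPM after division by exon length (point) and the lowest to highest of 6 libraries (line) for each member, on a log axis, in ESCs, TSCs and XEN cells. Peg10 is highest in each cell type, Igf2 moves from 2.39 TPM in ESCs to second place at 1454 TPM in TSCs, and 4 members have no XEN value.

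Several members had very different levels between cell types. In deposited TPM, Igf2 ranged from 1.48 to 6.57 in ESCs and from 532 to 2555 in TSCs. Cdkn1c, an inhibitor of cyclin-dependent kinases, ranged from 124 to 203 TPM in ESCs and from 863 to 2344 TPM in TSCs. Peg3, a zinc-finger protein, was highest in XEN cells, at 286 to 611 TPM against 56.4 to 203 in TSCs and 33.9 to 52.3 in ESCs. Grb10, an adaptor that dampens insulin and IGF receptor signalling, was at most 0.0598 TPM in the XEN libraries but lay between 17.6 and 133 TPM in the other cell types. Phlda2, a restraint on placental growth, had like ranges in ESCs (201 to 486 TPM) and TSCs (195 to 591 TPM). The tables were normalized separately, so these differences between cell types were not tested.

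**Figure D2:**
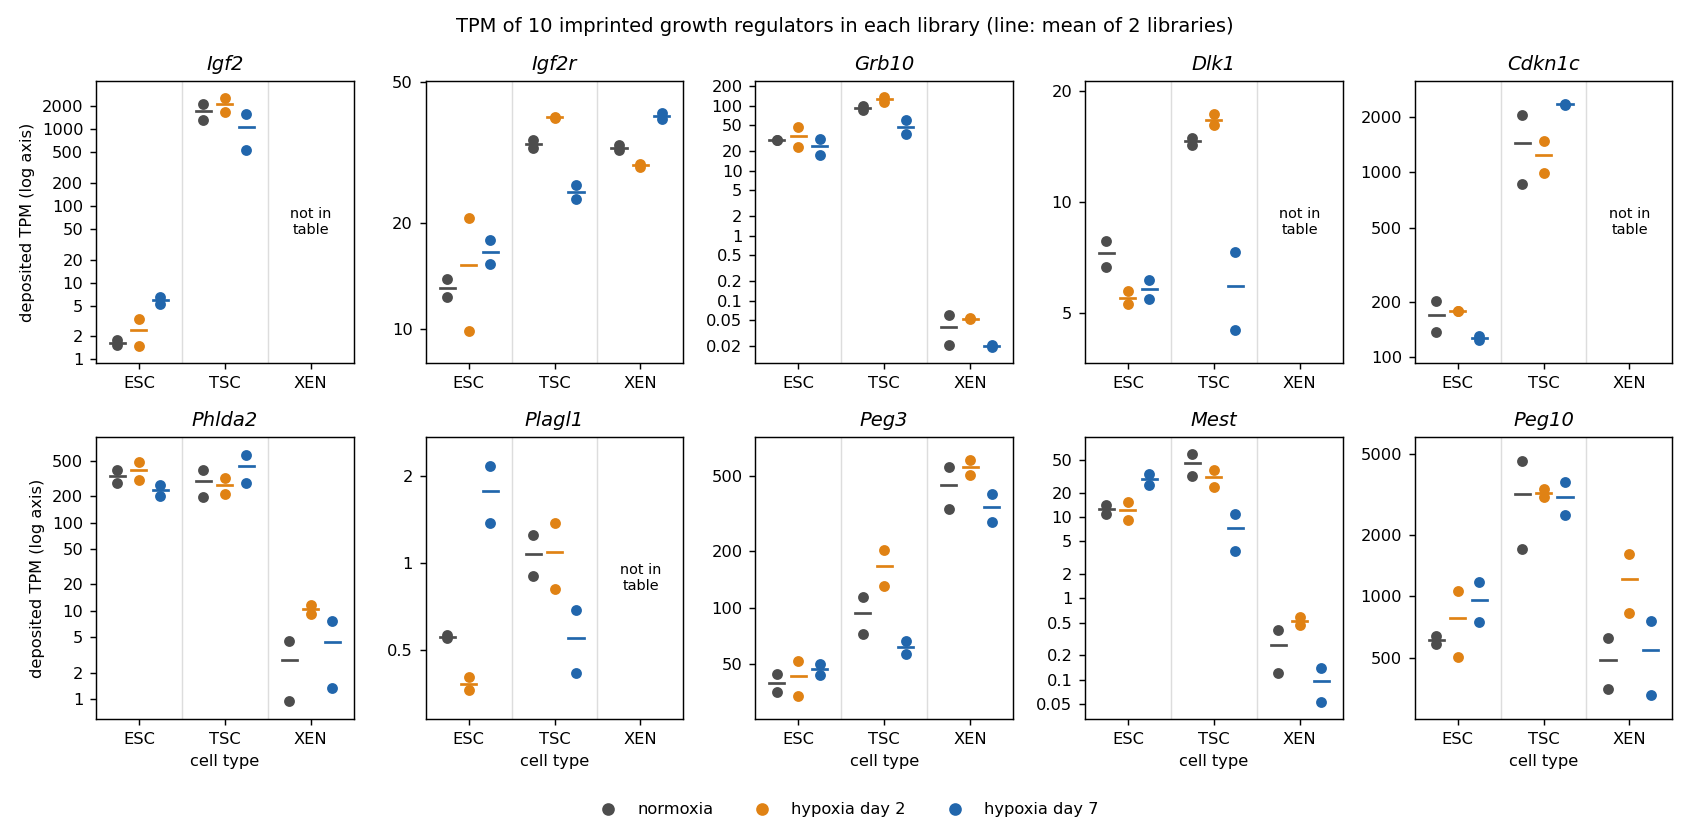
Deposited TPM of each member in each library on a log axis, by cell type and condition, with points for libraries and lines for the mean of 2. Igf2, Mest and Plagl1 are highest on day 7 in ESCs, whereas Mest, Dlk1, Grb10, Peg3 and Igf2r are lowest on day 7 in TSCs.

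Changes were tested with limma on log2 of TPM plus 0.5, over 12271 genes in the ESC table, 12481 in the TSC table and 10894 in the XEN table. A gene was called where it changed more than 1.5-fold and its p, adjusted after Benjamini and Hochberg over all genes of the table, did not exceed 0.1. Each comparison set 2 libraries against 2, for which an exact permutation test cannot give a p below 0.333. The p-values therefore rest on the spread that limma shares between genes. Day 7 was compared with normoxia and with day 2, so these comparisons share the day 7 libraries. Fold changes given below are on the log2 scale of TPM plus 0.5 with their SE, and understate the change of genes near 0.5 TPM.

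In ESCs on day 2, 0 of 10 members were called by limma, against 0% of all genes, and 0 members had an unadjusted p under 0.05. With voom on the recovered reads the count was also 0. The smallest adjusted p among the members was 0.970. The log2 fold changes ran from -0.37 to 0.36. The day 2 replicates themselves differed. Grb10 was at 22.9 and 46.2 TPM, Igf2r at 9.89 and 20.6 TPM, and Peg10 at 505 and 1058 TPM, so both normoxic values of each lay between them.

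On day 7 the growth factor Igf2 rose in ESCs. Its level was 1.54 and 1.76 TPM in normoxia, 1.48 and 3.32 TPM on day 2, and 6.57 and 5.24 TPM on day 7, on 78 to 502 reads per library. Gm49394 on the same strand and the antisense Igf2os overlap Igf2. Whether reads were counted by strand is not given in the sources used here. For Igf2, day 7 libraries were above all others, while the day 2 libraries overlapped with normoxia. The mean went from 1.65 ± 0.157 TPM (SD, n = 2) to 5.91 ± 0.942 TPM, a log2 fold change of 1.57 ± 0.30 (adjusted p = 0.0926 with limma). Igf2 was the only member called in this comparison, 1 of 10, against 0.758% of all genes in either direction and 0.717% called higher. The adjusted p was above 0.1 with the replicate number as a block (0.227), without a filter on low values (0.190), with median-ratio scaling (0.134), without the mean-variance trend (0.112) and with a pseudocount of 0.1 (0.103). It was also above 0.1 when any of the 4 libraries compared was left out, from 0.216 without the second day 7 library to 0.672 without the second normoxic one. The range of its adjusted p over 17 alternatives was 0.00264 to 0.672, and the log2 fold change stayed between 1.38 and 1.83.

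Plagl1 and Mest had similar values without being called. Plagl1, a zinc-finger transcription factor known to act on other imprinted genes, was at 0.547 and 0.564 TPM in normoxia, 0.361 and 0.402 TPM on day 2, and 1.38 and 2.18 TPM on day 7. Day 2 libraries were lowest and day 7 libraries highest, with no overlap among the 3 conditions. The log2 fold change was 1.09 ± 0.22 against normoxia (adjusted p = 0.107) and 1.35 ± 0.22 against day 2 (adjusted p = 0.104, limma). Since Plagl1 lay near the pseudocount, the ratio of mean TPM on day 7 was larger, 3.20 to normoxia and 4.66 to day 2.

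Mest, a paternally expressed gene of the alpha/beta hydrolase family, was at 14.2 and 10.9 TPM in normoxia, 15.1 and 9.19 TPM on day 2, and 25.0 and 33.9 TPM on day 7. Both day 7 libraries were above the other 4, which overlapped. Its log2 fold change was 1.19 ± 0.26 against normoxia (adjusted p = 0.137) and 1.27 ± 0.26 against day 2 (adjusted p = 0.270, limma). With exon lengths, with voom on recovered reads and in a fit of only the 4 libraries compared, 3 members were called against normoxia, Igf2, Mest and Plagl1. Peg10 was also past 1.5-fold, at 636 and 580 TPM in normoxia and 1172 and 748 TPM on day 7 (log2 fold change 0.62 ± 0.33, adjusted p = 0.725). The other 6 members had log2 fold changes between -0.52 and 0.33. By unadjusted p under 0.05, 3 members passed against 8.04% of all genes.

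Between day 7 and day 2 in ESCs, 0 of 10 members were called by limma and 0.179% of all genes, and 5 members had an unadjusted p under 0.05, against 4.26% of all genes. With voom 1 was called, Plagl1. Besides Plagl1 and Mest, Igf2 (1.21 ± 0.30, adjusted p = 0.497) and Phlda2 (-0.72 ± 0.25, adjusted p = 0.914) were past 1.5-fold. Phlda2 was at 281 and 396 TPM in normoxia, 306 and 486 TPM on day 2, and 270 and 201 TPM on day 7, below all others on day 7. Cdkn1c was at 137 and 203 TPM in normoxia, 178 and 178 TPM on day 2, and 124 and 130 TPM on day 7. Dlk1, a membrane-bound ligand of the Notch family, was at 6.66 and 7.85 TPM in normoxia and between 5.28 and 6.12 TPM in the 4 hypoxic libraries. Peg3 stayed between 33.9 and 52.3 TPM with overlap of all conditions. The remaining 6 members of this comparison ranged from -0.49 to 0.36 on the log2 scale.

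Other genes of the IGF pathway in ESCs included some that were called on day 7 against normoxia. Of 20 tested, 2 rose and 0 fell. Igfbp3, a carrier that binds IGFs outside the cell, was at 44.9 and 33.9 TPM in normoxia and 103 and 73.1 TPM on day 7 (log2 fold change 1.14 ± 0.21, adjusted p = 0.0813, limma). Igf2bp2, an RNA-binding protein named for its binding to Igf2 mRNA, was at 10.4 and 9.85 TPM in normoxia and 22.5 and 21.7 TPM on day 7 (1.09 ± 0.20, adjusted p = 0.0813). The median log2 fold change of the 20 genes was 0.21, against 0.02 for all genes. Among the other imprinted genes, 0 of 20 paternally and 0 of 16 maternally expressed genes were called. The largest differences in these lists were those of Peg12 (1.0 ± 0.32, adjusted p = 0.385) and Tspan32 (0.52 ± 0.21, adjusted p = 0.557). Of 9 factors that maintain imprints, 1 was called. Dppa3, which protects maternal imprints in the early embryo, was at 48.6 and 43.2 TPM in normoxia and 90.3 and 102 TPM on day 7 (1.06 ± 0.14, adjusted p = 0.0222). Zfp57 was at 622 and 540 TPM in normoxia and 396 and 505 TPM on day 7.

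Single genes of other lineages were among those called in this comparison in ESCs, 1 of 3 trophoblast differentiation markers tested and 1 of 3 fibroblast markers. Hand1, a gene of trophoblast and mesoderm, rose (log2 fold change 2.04 ± 0.26, adjusted p = 0.0222, limma), as did the collagen gene Col1a1 (2.30 ± 0.37, adjusted p = 0.0544). The others tested from these lists, Gcm1 (-0.43), Syna (0.50), Col1a2 (1.08) and Thy1 (-0.04), were not called. The summed fibroblast markers were 28.6 and 25.1 TPM in normoxia and 40.5 and 32.0 TPM on day 7, and Postn, Lum, Dcn, Twist2 and Prrx1 were not among the genes of the table. Of the 6 ESC markers, 0 were called. The part of these genes in the values of Igf2, Mest and Plagl1 was not tested.

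**Figure D3:**
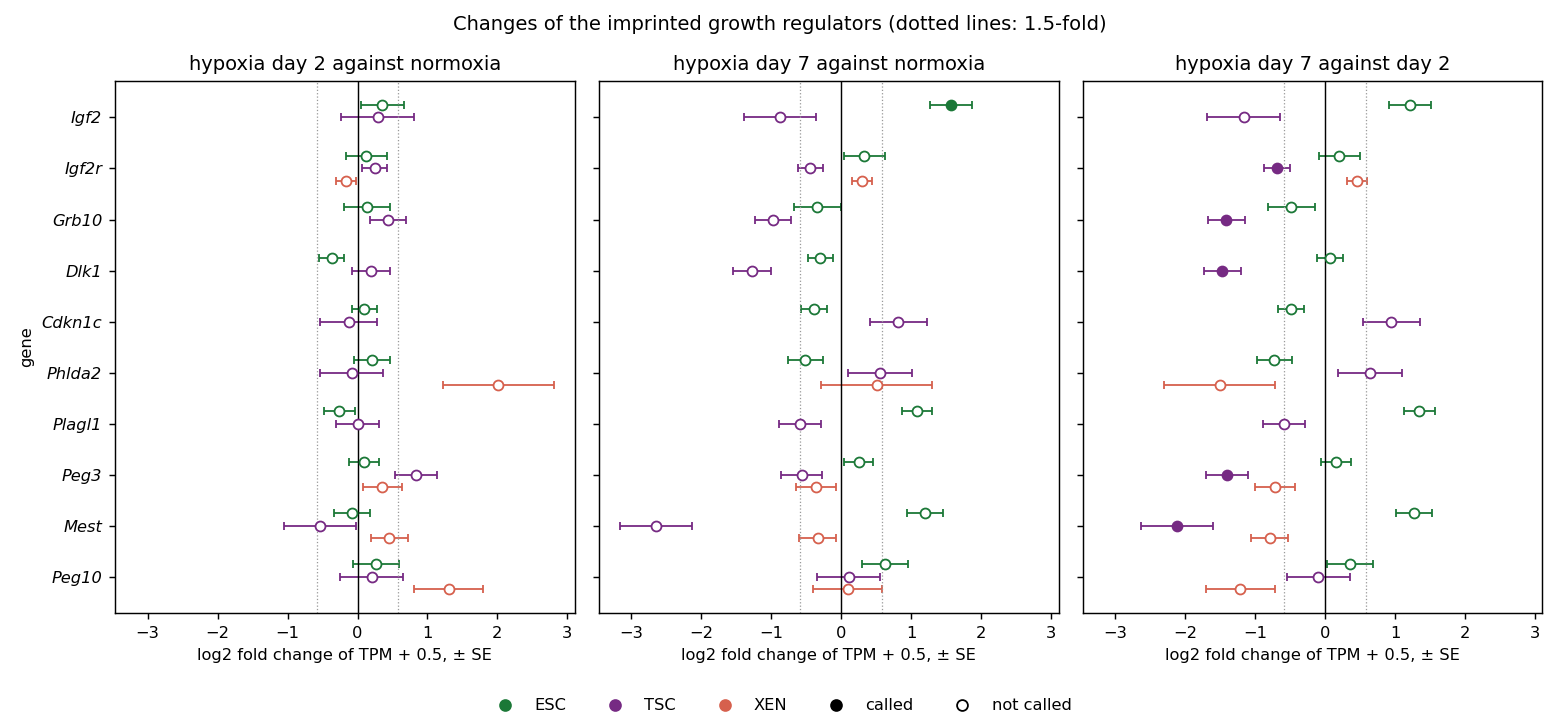
Log2 fold change of TPM plus 0.5 with its SE for each member in the 3 comparisons, by cell type, with filled points for called genes and dotted lines at 1.5-fold. Igf2 in ESCs on day 7 against normoxia (1.57) and 5 members in TSCs on day 7 against day 2 (-0.69 to -2.11) are the called values.

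In TSCs on day 2, 0 of 10 members were called by limma, against 0.200% of all genes, and 1 had an unadjusted p under 0.05, against 13.1% of all genes. With voom the count was 0. That member was Peg3, at 72.8 and 114 TPM in normoxia and 203 and 131 TPM on day 2. Both hypoxic libraries were above both normoxic ones (log2 fold change 0.83 ± 0.30, adjusted p = 0.323). The other 9 members ranged from -0.54 to 0.43. The median over the members was 0.20, and that of all genes was 0.07.

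On day 7 against normoxia in TSCs, 0 of 10 members were called, against 0.385% of all genes, while 6 were past 1.5-fold, against 15.9% of all genes, and 4 had an unadjusted p under 0.05, against 10.4%. With voom the count was 0. The largest was Mest, at 59.2 and 32.0 TPM in normoxia, 23.4 and 37.8 TPM on day 2, and 10.9 and 3.78 TPM on day 7. Both day 7 values lay below the other 4 values (log2 fold change -2.65 ± 0.52, adjusted p = 0.162). Without the second normoxic library the value was -3.09 and was called (adjusted p = 0.0739). The range of the adjusted p over all alternatives was 0.0739 to 0.888. Dlk1 (-1.28 ± 0.27, adjusted p = 0.179), Grb10 (-0.98 ± 0.26, 0.265), Igf2 (-0.88 ± 0.52, 0.614), Cdkn1c (0.82 ± 0.40, 0.552) and Plagl1 (-0.59 ± 0.30, 0.569) were also past 1.5-fold. The other 4 members ranged from -0.57 to 0.55. The median of all genes was -0.18 in this comparison and that of the members -0.58.

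Between day 2 and day 7 of hypoxia, 5 of 10 members fell in TSCs and 0 rose. These were Mest, Dlk1, Grb10, Peg3 and Igf2r, and they belong to both the paternally and the maternally expressed members. The share has to be read against all genes, of which 16.2% were called in either direction and 13.8% were called lower. The median of all genes was -0.24 and that of the 10 members -0.93. Median-ratio scaling moved the median of all genes to 0.01 and the split of the calls over all genes from 296 higher and 1723 lower to 724 higher and 982 lower. With it 4 of the 5 members were still called, with log2 fold changes of -1.85 for Mest, -1.20 for Dlk1 and -1.13 for both Grb10 and Peg3.

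Mest had the largest fall, with a log2 fold change of -2.11 ± 0.52 (adjusted p = 0.0547, limma) from the TPM given above, a mean of 30.6 ± 10.2 (SD, n = 2) against 7.35 ± 5.05. Dlk1 was at 14.3 and 14.9 TPM in normoxia, 16.2 and 17.3 TPM on day 2, and 4.48 and 7.31 TPM on day 7. Its replicates were close in normoxia and on day 2, and both day 7 libraries lay far below them (-1.47 ± 0.27, adjusted p = 0.0305). Grb10 was at 97.3 and 86.2 TPM in normoxia, 133 and 115 TPM on day 2, and 59.1 and 36.1 TPM on day 7 (-1.41 ± 0.26, adjusted p = 0.0302). The 3 conditions of Grb10 did not overlap, with day 2 highest. Peg3 was at 66.6 and 56.4 TPM on day 7 (-1.40 ± 0.30, adjusted p = 0.0401), below its values on day 2 and in normoxia.

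Igf2r was at 34.3 and 32.5 TPM in normoxia, 39.8 and 39.6 TPM on day 2, and 23.4 and 25.6 TPM on day 7. The conditions did not overlap, and the change was the smallest of those called (-0.69 ± 0.18, adjusted p = 0.0657). The call of Igf2r was lost with median-ratio scaling (-0.41, adjusted p = 0.217) and with voom (-0.56, adjusted p = 0.123), each of which left 4 called members. The range of its adjusted p over all alternatives was 0.0643 to 0.300. Airn, an antisense transcript that silences the paternal copy, overlaps Igf2r, and whether reads were counted by strand is not given in the sources used here.

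Which libraries entered decided how many members passed. Without the first day 2 library or the second day 7 library 0 of 10 were called, without the second day 2 library 3 (Dlk1, Grb10 and Peg3), and without the first day 7 library 2 (Grb10 and Mest). The 5 fold changes kept their sign in each case, and Mest ranged from -1.41 to -2.82.

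The other 5 members were not called. Igf2 was at 1324 and 2149 TPM in normoxia, 2555 and 1661 TPM on day 2, and 1588 and 532 TPM on day 7, with both day 7 libraries below both day 2 libraries and the second one far below all others (-1.16 ± 0.52, adjusted p = 0.198). Cdkn1c was at 863 and 2040 TPM in normoxia, 991 and 1486 TPM on day 2, and 2344 and 2329 TPM on day 7. Both day 7 libraries were above the other 4 (0.94 ± 0.40, adjusted p = 0.184), and Cdkn1c was called in the fit of the 4 libraries compared and without either normoxic library, each of which gave 6 called members. Phlda2 was at 195 and 398 TPM in normoxia, 214 and 322 TPM on day 2, and 283 and 591 TPM on day 7, with overlap (0.64 ± 0.45, adjusted p = 0.40). Plagl1 lay between 0.810 and 1.38 TPM in normoxia and on day 2 and was at 0.686 and 0.414 TPM on day 7 (-0.59 ± 0.30, adjusted p = 0.256). Peg10 was at 1705 and 4631 TPM in normoxia, 3090 and 3387 TPM on day 2, and 3657 and 2503 TPM on day 7, and its log2 fold change was -0.10, or 0.18 with median-ratio scaling.

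Copg2 and Zim1, which lie near members on the chromosome, were among the called genes of the other lists. Whether other neighbours of the members in these lists changed with them was not tested. Copg2, which overlaps Mest on the opposite strand, was at 5.13 and 4.84 TPM in normoxia, 10.9 and 7.23 TPM on day 2, and 3.84 and 3.40 TPM on day 7 (-1.19 ± 0.27, adjusted p = 0.0474, limma). Without knowing how strand was counted, the reads of Mest and Copg2 in the shared part cannot be told apart. Zim1, from the imprinted cluster of Peg3, was at 1.46 and 2.28 TPM in normoxia, 4.82 and 3.04 TPM on day 2, and 1.11 and 1.12 TPM on day 7 (-1.42 ± 0.31, adjusted p = 0.0428). Klf14 also fell (-1.35 ± 0.33, adjusted p = 0.0555). Together 5 of 16 maternally expressed genes outside the members fell and 0 rose, with a median of -0.41. Over all genes, 13.8% were called lower and the median was -0.24. Of 17 paternally expressed genes outside the members, 1 fell, Mkrn3 (-1.24 ± 0.24, adjusted p = 0.0329), and 0 rose, with a median of -0.09.

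Of the IGF pathway genes, 4 of 22 fell between day 2 and day 7 in TSCs and 0 rose, near the 13.8% of all genes called lower, and their median of -0.18 was less negative than that of all genes (-0.24). Igfbp2, an IGF carrier, was at 17.5 and 11.7 TPM in normoxia, 17.8 and 24.1 TPM on day 2, and 4.6 and 4.93 TPM on day 7 (-2.01 ± 0.28, adjusted p = 0.0181). Insr, the insulin receptor, was at 9.89 and 7.64 TPM on day 2 and 3.95 and 3.23 TPM on day 7 (-1.18 ± 0.28, adjusted p = 0.0524). Of 8 factors that maintain imprints, 2 fell and 0 rose. Zfp57 was at 79.4 and 88.8 TPM in normoxia, 153 and 88.9 TPM on day 2, and 52.6 and 52.8 TPM on day 7 (-1.14 ± 0.27, adjusted p = 0.0501). Ezh2, the methyltransferase of Polycomb complex PRC2, fell by 0.65 (SE 0.19, adjusted p = 0.0815).

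Markers of cell types were also called in the same comparison. Of the 5 TSC markers, 4 fell, Elf5 (-2.30 ± 0.20, adjusted p = 0.00685), Cdx2 (-1.68 ± 0.31, 0.0294), Eomes (-1.55 ± 0.30, 0.0328) and Tead4. The remaining marker, Tfap2c, had a positive log2 fold change and was not called. The sum of all 5 was 866 and 1157 TPM on day 2 and 711 and 633 TPM on day 7. The trophoblast differentiation markers were mixed, with Prl3d1 of giant cells higher (2.15 ± 0.43, adjusted p = 0.0351), Gcm1 lower (-1.38 ± 0.44, 0.0977) and 3 others not called. Their sum was 8584 and 7258 TPM on day 2 and 14776 and 12901 TPM on day 7. In normoxia it was 8660 and 14430 TPM. Cdkn1c was at 863 and 2040 TPM in normoxia, 991 and 1486 TPM on day 2, and 2344 and 2329 TPM on day 7. The library with the higher sum had more Cdkn1c in normoxia but less on day 2, and Cdkn1c was nearly level on day 7. Prl3b1, Tpbpa, Synb, Ctsq and Psg21 were not among the genes of the table. Of 4 genes of the ESC marker list tested in TSCs 3 fell, Sox2 (-2.85 ± 0.20, adjusted p = 0.00579), Nanog (-1.96 ± 0.33, 0.0262) and Zfp42 (-1.16 ± 0.18, 0.0211). Of 5 XEN markers Pdgfra rose (1.55 ± 0.48, adjusted p = 0.0937) and Gata4 fell (-1.60 ± 0.26, 0.0237). Of 10 fibroblast markers 0 were called. The library with more summed fibroblast markers also had more Mest in each condition, which none of the other called members had. In the library with the higher sum, Peg3 was lower in normoxia and on day 2, and Dlk1 in normoxia and on day 7. Igf2r was lower there on day 2 and day 7, and Grb10 on day 2. The sum was 202 and 961 TPM on day 2 and 439 and 261 TPM on day 7. Mest was at 23.4 and 37.8 TPM on day 2 and 10.9 and 3.78 TPM on day 7. The part of these markers in the values of the members was not tested.

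**Figure D4:**
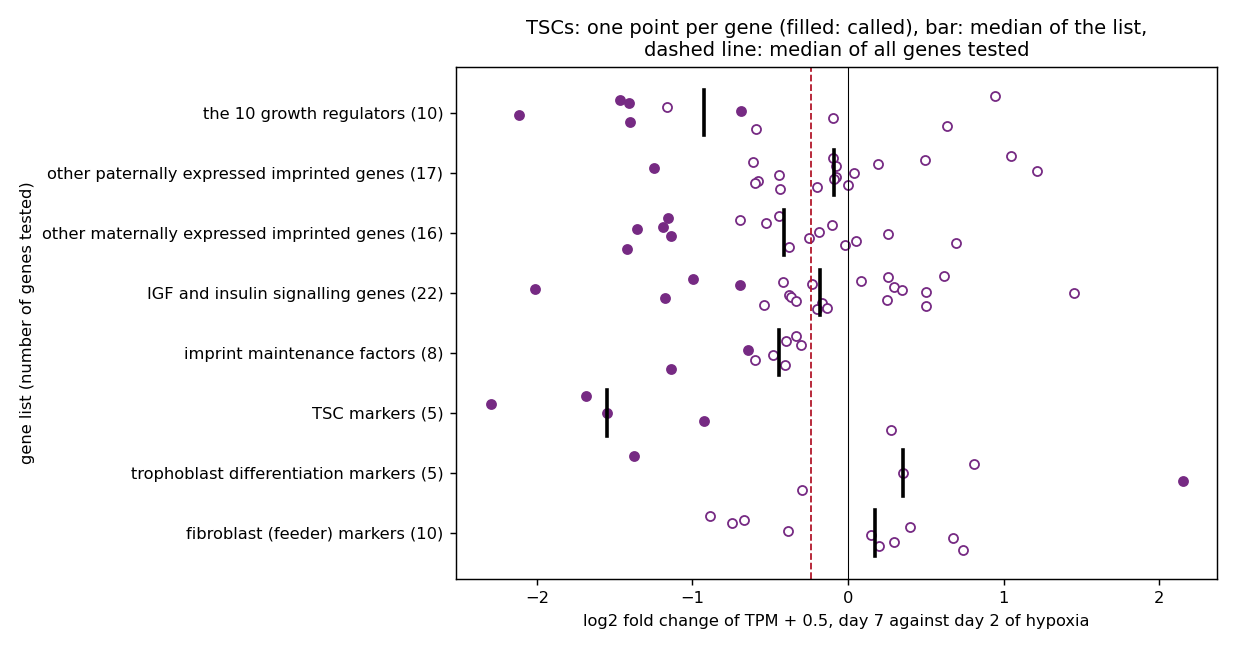
Log2 fold change of TPM plus 0.5 in TSCs between day 2 and day 7 of hypoxia, 1 point per gene, for the members and 7 other lists, with filled points for called genes, black bars for list medians and a dashed line for the median of all genes (-0.24). The members' median is -0.93, and 4 of 5 TSC markers are called and lie below -0.24.

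In XEN cells 0 of the 5 members tested were called in each comparison by limma, and 0 with voom. The background was 0% of all genes on day 2, 0.110% on day 7 and 0.0367% between them. By unadjusted p under 0.05, 2, 0 and 4 members passed, against 7.77%, 9.01% and 11.9% of all genes. Peg10 was at 622 and 352 TPM in normoxia, 1608 and 831 TPM on day 2, and 327 and 758 TPM on day 7. Day 2 libraries were highest, with log2 fold changes of 1.30 ± 0.49 against normoxia (adjusted p = 0.597) and -1.22 ± 0.49 from day 2 to day 7 (adjusted p = 0.414). Phlda2 was at 4.61 and 0.939 TPM in normoxia, 9.28 and 11.8 TPM on day 2, and 1.3 and 7.65 TPM on day 7. It was also highest on day 2, on 78 and 97 reads, and the fold changes had wide errors (2.02 ± 0.79, adjusted p = 0.603, and -1.51 ± 0.79, adjusted p = 0.452).

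Peg3 was at 562 and 336 TPM in XEN cells in normoxia, 611 and 508 TPM on day 2, and 286 and 402 TPM on day 7 (-0.72 ± 0.28 from day 2 to day 7, adjusted p = 0.412). Mest was at 0.408 and 0.121 TPM in normoxia, 0.475 and 0.586 TPM on day 2, and 0.0532 and 0.139 TPM on day 7, on 5 to 75 reads (-0.79 ± 0.27 from day 2 to day 7, adjusted p = 0.392). Igf2r had close replicates, at 32.0 and 33.1 TPM in normoxia, 29.3 and 28.8 TPM on day 2, and 40.7 and 39.1 TPM on day 7. Its 3 conditions did not overlap, and its fold changes stayed within 1.5-fold. Grb10 was below the filter on low values and was not tested. Of the other imprinted genes in XEN cells, 0 of 14 paternally and 0 of 7 maternally expressed ones were called in each comparison, and 0 of 18 genes of the IGF pathway. Within the IGF list, Igfbp5 had the largest difference on day 7 (1.30 ± 0.27, adjusted p = 0.230) and Igf1 the largest on day 2 (-0.98 ± 0.23, adjusted p = 0.432, limma).

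The genes whose pattern was most like that of a called member were sought among 10081 genes tested in all 3 cell types, by Pearson's r over 18 libraries after removing the mean of each cell type. Peg3 was most like Zfp710 (0.93), Thpo (0.92) and Fdft1 (0.91). Mest was most like Cyp26a1 (0.93), Prep (0.92) and Slc7a6 (0.91). Igf2r was most like Ccdc191, Col9a3 and Miip (0.86 each). These values are a description, and libraries of a cell type share their normalization.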

How the data were processed

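Bulk RNA-seq covered 9 groups of 2 libraries, made up of 3 cell types at each of normoxia, day 2 and day 7. Per the methods of the study, the authors trimmed reads with cutadapt 2.4, aligned them to mm10 with STAR 2.7.5a, counted them with featureCounts and filtered for protein-coding genes that exceeded 0.4 CPM in a minimum of 2 libraries of a cell type. The authors deposited TPM in a table per cell type, scaled by the span from gene start to end, and its columns named for day 0 were taken as normoxia. No count test was the basis of the calls here, since the deposited unit is TPM. A span that includes introns lowers the TPM of genes with long introns and leaves fold changes of a gene almost as they were.

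Within each cell type, genes over 0.4 TPM in 2 or more of its 6 libraries were tested with limma 3.58.1 (R 4.3.3) on log2(TPM + 0.5) with a mean-variance trend. The 6 libraries shared the estimate of spread, and no fit spanned cell types. Calls needed an adjusted p at or under 0.1, over all genes tested, and a fold change over 1.5. Whole reads were recovered within 0.05 for 98.7% to 98.9% of values per library in Python 3.11.15, and served for depth, exon-length TPM and voom. Gene coordinates and exon lengths came from GENCODE on the same build, and promoters from RefSeq. The fit was also run on simulated data, and no call here rests on that run. The labels do not say that equal replicate numbers mark a shared culture, so the number was not in the fit.

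All members were named by their TPM. Fold changes were named where called or past 1.5-fold, and other lists by at most 3 called genes per direction or, where none was called, the 2 with the largest fold change at most. Other genes of those lists, such as Zfp57 in ESCs, were named after their values were seen. The members and lists were chosen with earlier results of these data known. Alternatives were other pseudocounts (0.1 and 1), filters (none, TPM above 1), median-ratio scaling, no trend, the replicate block, exon lengths, voom, 4 libraries, each library left out and an adjusted p at or under 0.05.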

Additional observations from a re-analysis of the deposited data

Results flagged for a closer look

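Some members had both libraries on one side of their comparison in one cell type and both on the other side in another. The share of all genes that did so was not computed. For 2 libraries against 2 that lie fully apart, an exact permutation test gives a p of 0.333, so the list is a description. The difference between cell types was not tested, because the tables were normalized separately, and all values are log2 fold changes of TPM plus 0.5.

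On day 7 against normoxia, Mest was at 1.19 in ESCs and -2.65 in TSCs, Plagl1 at 1.09 and -0.59, and Cdkn1c at -0.39 and 0.82. Igf2r was at 0.33 in ESCs and 0.29 in XEN cells, but at -0.44 in TSCs. From day 2 to day 7, Mest was at 1.27 in ESCs, whereas TSCs (-2.11) and XEN cells (-0.79) were below 0. In the same comparison Igf2 was at 1.21 in ESCs and -1.16 in TSCs, Plagl1 at 1.35 and -0.59, and Cdkn1c at -0.49 and 0.94. The values of Igf2r were -0.69 (TSCs) and 0.45 (XEN cells). On day 2 against normoxia the values were small, with Igf2r at 0.25 in TSCs and at -0.16 in XEN cells, and Dlk1 at -0.37 in ESCs and 0.19 in TSCs.

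Of these values, those of Mest and Igf2r from day 2 to day 7 in TSCs were called. Both day 7 comparisons use the day 7 libraries, so their values for a gene are not separate observations.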

How the results depend on the processing

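The 30 fold changes followed kept their direction in all 509 values computed under alternatives, with 0 reversed, but the calls moved. In ESCs on day 7 against normoxia, where 1 member was called, the count was 0 with a pseudocount of 0.1, median-ratio scaling, no filter on low values, an adjusted p at or under 0.05 or the replicate block, and 3 with exon lengths, voom or 4 libraries. In ESCs from day 2 to day 7 it was 1 instead of 0 without the trend, with exon lengths and with voom. In TSCs from day 2 to day 7 it was 3 instead of 5 at an adjusted p at or under 0.05. Leaving out each library in turn gave 0 to 3 called members in ESCs on day 7 against normoxia, 0 to 3 from day 2 to day 7, 0 to 1 in TSCs on day 7 against normoxia and 0 to 6 from day 2 to day 7. The cause was not tested. Where a group was left with 1 library, that library was assumed to vary like the others. The other counts stayed at 0.

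Deviations of libraries with the same replicate number were correlated at -0.22 to 0.01 in ESCs. The range was -0.46 to 0.27 in TSCs and -0.11 to 0.24 in XEN cells. The sign was mixed, and these values can neither show nor exclude a shared culture. With the replicate block, 5 members remained called in TSCs from day 2 to day 7. Depth limits the XEN values of Phlda2, Mest and Grb10, which rest on at most 97 reads, and with 2 libraries per group no member could be tested for an outlying library.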
